A study of Mus musculus with 3 samples.

Results

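Heat shock proteins and their J-domain co-chaperones were examined in 3 RNA-seq libraries of mouse macrophages. Members were the genes whose symbols begin with Hspa, Hspb, Hspd, Hspe, Hsph, Hsp90, Dnaja, Dnajb or Dnajc and that have a protein-coding transcript, apart from Hspa5. They numbered 73 of 55536 annotated genes, or of 21901 genes with a protein-coding transcript. Strain C57BL/6J supplied the bone marrow from which these primary phagocytic cells were grown. Per the written description they received 100 ng/ml lipid A, the membrane anchor of bacterial lipopolysaccharide, for 12 h, a washout of 12 h and 100 ng/ml lipid A again for 480 min. The treatment fields of the labels name lipoprotein A instead. Age and sex were not collected, and no genetic change is named. All 3 libraries (biological replicates 1, 2 and 3, each from 1 µg of RNA) belong to this 1 group, so levels and their spread are given and no effect of the treatment. All carry the same donor record, and nothing in the labels says that different animals were used, so p-values and SDs may measure technical spread only.

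HSP70 proteins (the Hspa genes) bind exposed hydrophobic stretches of unfolded chains and release them in a cycle driven by ATP. J-domain proteins (the Dnaj genes) bring clients to HSP70 and stimulate its ATPase, and nucleotide exchange factors such as HSP110 (Hsph1) reset it. HSP90 takes over clients late in folding, many of them kinases and receptors, the HSP60 chaperonin Hspd1 with its lid Hspe1 folds proteins inside mitochondria, and the small heat shock proteins (most Hspb genes) hold unfolded proteins without ATP. Some members are made at all times, and others are induced by heat or proteotoxic stress through heat shock factor 1 (HSF1), which binds inverted repeats of the letters GAA in front of its targets.

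The stretches in front of the gene starts were read for such repeats, since the constitutive and the stress-inducible members differ in regulation. A pair of inverted units was searched as GAANNTTC or TTCNNGAA, and 3 units as GAANNTTCNNGAA or TTCNNGAANNTTC, on both strands, in the 250 bases before each RefSeq gene start; any 3-unit match also holds 2-unit matches. Of the 73 members 59 had a RefSeq window (GRCm38.p6). A 2-unit match lay in 14 of these 59 (23.7%), against 14.5% of 27025 genes with a window. The 27025 were not limited to protein-coding genes, as the members are. The 14 were Dnaja1, Dnaja4, Dnajb4, Dnajb6, Dnajc10, Dnajc27, Hspa1a, Hspa1b, Hspb1, Hspb3, Hspb6, Hspd1, Hspe1 and Hsph1. No match was found for Dnajb1, Hsp90aa1, Hspa8 or Hsp90ab1, and members without a window could not be read. The stretches printed below were picked among genes with a match. A 3-unit match lay in 3 of 59 (5.08%), against 0.514% of all genes with a window: Dnajb6, Hspd1 and Hspe1. The match of Hspd1 and Hspe1 is the same run of bases, and the Hspa1a and Hspa1b stretches are near copies. Both member shares therefore count sites that are not independent. The 5 stretches below end at the base before the gene start, are written 5′ to 3′ on the gene's strand, and have the matched letters in capitals. They are shown because they compare an abundant J protein (Dnaja1) and the mitochondrial chaperonin with the inducible HSP70 pair and a small heat shock protein near 0 TPM (counts scaled by transcript length to a fixed sum per library). A match of letters is a description of the sequence and not a measured binding site.
Hspe1, chr1:55088018-55088147, plus strand: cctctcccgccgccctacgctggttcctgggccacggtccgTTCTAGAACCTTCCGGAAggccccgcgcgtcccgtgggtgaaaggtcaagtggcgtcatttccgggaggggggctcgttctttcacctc
Dnaja1, chr4:40722338-40722467, plus strand: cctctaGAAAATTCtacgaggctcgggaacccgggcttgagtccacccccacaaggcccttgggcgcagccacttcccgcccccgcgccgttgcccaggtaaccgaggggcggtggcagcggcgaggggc
Hspa1a, chr17:34972157-34972286, minus strand: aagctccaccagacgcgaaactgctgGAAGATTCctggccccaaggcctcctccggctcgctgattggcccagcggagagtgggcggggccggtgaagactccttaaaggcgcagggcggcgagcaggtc
Hspa1b, chr17:34959239-34959368, minus strand: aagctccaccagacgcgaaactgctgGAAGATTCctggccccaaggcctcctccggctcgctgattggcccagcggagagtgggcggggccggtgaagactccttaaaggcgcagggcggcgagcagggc
Hspb1, chr5:135887789-135887918, plus strand: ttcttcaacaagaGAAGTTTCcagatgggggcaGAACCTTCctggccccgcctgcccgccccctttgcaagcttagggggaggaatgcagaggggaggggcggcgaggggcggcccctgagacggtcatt

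Hspe1 and Hspd1 are transcribed away from each other from neighbouring starts, and their annotated genes overlap by 112 bases there. The run of units printed for Hspe1 is also the match in the Hspd1 window, so both genes share it. The strandedness of the libraries is not given in the sources used here, and reads from that overlap cannot be assigned to one gene without it. The stretches of Hspa1a and Hspa1b are equal at 129 of 130 bases (99.2%), and each holds its 2-unit match 104 bases before the start. The Hspb1 stretch holds matches at 117 and 97 bases before the start.

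Expected counts totalled 24596382, 54016971 and 43127749 in replicates 1, 2 and 3. Replicate 2 stood apart: mitochondrial mRNAs took 6.86% of its counts, against 1.06% and 1.13% in replicates 1 and 3. The chi-square per degree of freedom between libraries was 88.6 for replicates 1 and 3 and 586 and 699 for the pairs with replicate 2, so no library was a copy of another. All 8 macrophage markers were detected, with mean levels from 74.8 to 9400 TPM. Fibroblast, T cell and striated muscle markers were detected in 0 of 6, 0 of 4 and 0 of 6 cases, B cell and male germ cell markers in 1 of 5 and 1 of 6 (Cd79b and Ddx4), and neutrophil markers in 2 of 6 (S100a8 and S100a9). The summed neutrophil markers were at 3.83, 16.9 and 5.42 TPM in replicates 1, 2 and 3, with Ly6g at 0 in each. Their part in the differences between libraries below was not tested. In such bulk samples fewer cells that make a transcript and less of it per cell cannot be told apart.

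Most members were expressed. At 1 TPM or more in each of the 3 libraries, 55 of 73 (75.3%) were detected, against 43.1% of all protein-coding genes. At least 100 TPM in each library was reached by 10 (13.7%), against 4.06%: Hspa8, Hsp90ab1, Dnaja1, Hsp90b1, Dnajb6, Dnaja2, Hspe1, Hsp90aa1, Dnajc7 and Hspa9. The summed level of the 73 members was 4918 TPM in replicate 1, 9034 in replicate 2 and 5381 in replicate 3. Over protein-coding transcripts only, these sums were 4611, 5314 and 5106 TPM, so most of the excess of replicate 2 lay on transcripts that are not annotated as protein-coding.

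**Figure D1:**
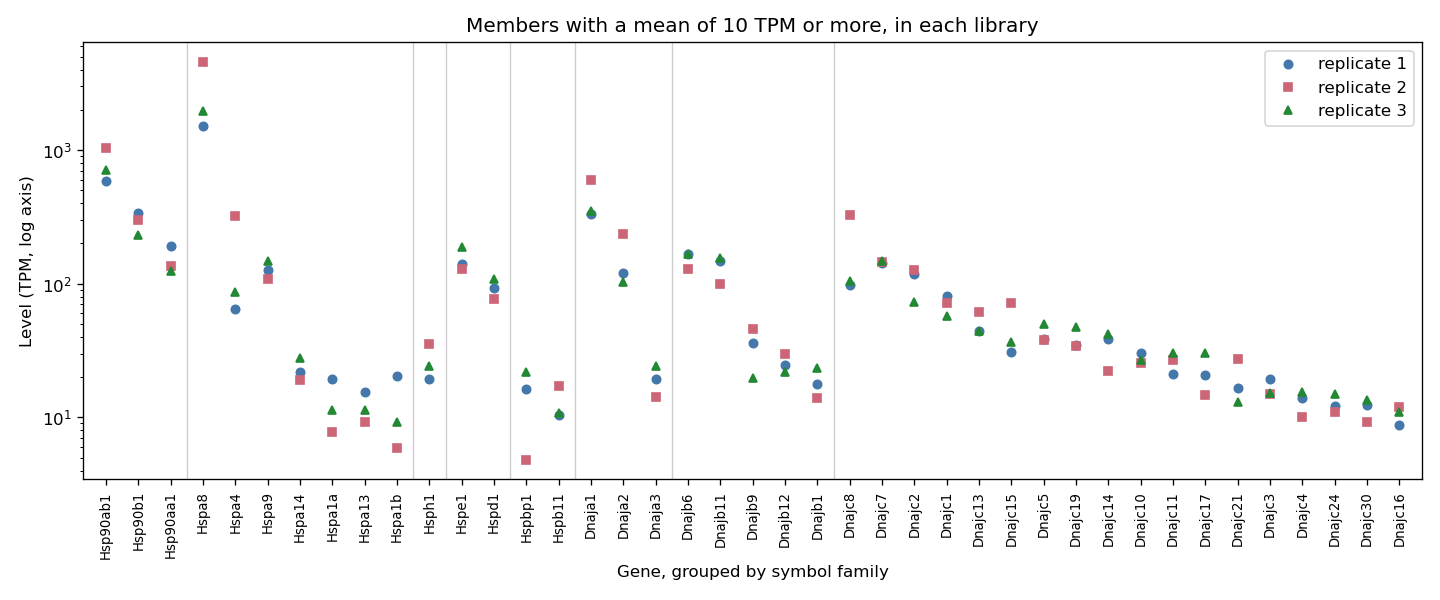
Level of each of the 41 members with a mean of 10 TPM or more (x axis, grouped by symbol family) in TPM on a log axis, with 1 point per library. Hspa8 is the highest member in all 3 libraries, and replicate 2 lies far above the others for Hspa8, Hspa4 and Dnajc8 and below them for Hspa1a, Hspa1b and Hspbp1.

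Among the 3 HSP90 genes the constitutive cytosolic form Hsp90ab1 led. It lay at 588, 1041 and 706 TPM in replicates 1, 2 and 3 (mean 778 ± 235, SD, n = 3; chr17:45567775-45573271), on the 2520-base transcript Hsp90ab1-201 almost alone. Hsp90b1 (GRP94), the form of the endoplasmic reticulum that folds Toll-like receptors and integrins, lay at 338, 300 and 232 TPM. The inducible cytosolic form Hsp90aa1 lay at 191, 136 and 124 TPM. Hsp90ab1 thus exceeded Hsp90aa1 in every library, with a log2 ratio of 2.36 ± 0.67 (SD, n = 3). A pair was called separated where this ratio kept its sign in 3 libraries and its mean exceeded 3 SD. With 3 libraries the smallest p of an exact sign-flip test would be 0.25, so none was run. Where a library was left out, the rule was applied to n = 2. Such an SD comes from 2 values, so these calls are not comparable with those on n = 3. The call was lost in the second deposited quantification of the same reads (1.95 ± 0.77) and without replicate 3 (2.28 ± 0.93). Against Hsp90b1 the ratio of Hsp90ab1 was 1.40 ± 0.53, which is positive in each library and not separated by that rule. Without replicate 1 it was separated (1.70 ± 0.14, n = 2). Trap1, the mitochondrial HSP90 outside the symbol rule, lay at 22.9, 25.6 and 32.8 TPM, a log2 ratio of 4.81 ± 0.47 below Hsp90ab1.

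Among the 12 HSP70 genes, the constitutive cytosolic HSC70 gene Hspa8 dominated (chr9:40800984-40810087). Its level was 1521, 4532 and 1946 TPM in replicates 1, 2 and 3, which was 30.9%, 50.2% and 36.2% of the summed level of all members. The value of replicate 2 stood far above the other two. In CPM, counts scaled to the library's total but not by length, the gap was smaller: 2137, 3335 and 2824. The share of Hspa8 in the summed CPM of all members was 29.5%, 34.1% and 34.8%, with replicate 2 not apart. Hspa9 (mortalin), the HSP70 of the mitochondrial matrix, was at 126, 109 and 149 TPM, and Hspa8 exceeded it by a log2 ratio of 4.23 ± 1.00 (3.65 without replicate 2, 3.41 in CPM). Hspa4, of the HSP110-like branch that acts as exchange factor for HSP70, was at 64.1, 319 and 86.7 TPM, again with replicate 2 apart. Another exchange factor, Hsph1 (HSP105), was at 19.4, 35.5 and 24.2 TPM. The log2 ratio of Hspa4 to Hsph1 was 2.24 ± 0.80, not separated. It was separated in the second deposited quantification of the same reads (2.39 ± 0.68) and in CPM (2.20 ± 0.40). The same held over protein-coding transcripts only (1.82 ± 0.34) and without replicate 2 (1.78 ± 0.08, n = 2).

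The stress-inducible HSP70 genes were low. Hspa1a lay at 19.2, 7.82 and 11.4 TPM and Hspa1b at 20.6, 5.95 and 9.28 TPM, so that both were highest in replicate 1 and lowest in replicate 2. Hspa1b in replicate 1 was the only member at least 2-fold above both other libraries there (1.82% of 55 detected members, against 1.11% of detected protein-coding genes). Hspa8 exceeded Hspa1a by a log2 ratio of 7.62 ± 1.44 and Hspa1b by 7.82 ± 1.68, both separated (6.85 and 6.95 without replicate 2, 6.84 and 7.12 in CPM). The log2 ratio of Hspa1b to Hspa1a changed sign between libraries (0.10, -0.39 and -0.29). Neither gene was separated from the other except without replicate 1 (-0.34 ± 0.07, n = 2). Those genes stand 9951 bases apart on chromosome 17 and share most of their letters. Of the 50-base words of the main Hspa1b transcript 62.3% occur in another gene, all of them in Hspa1a. The posterior SD that was deposited with the counts was 13.2 to 14.8 counts for Hspa1a, beside 886 to 957 expected counts, so the split between both is a model estimate. The other HSP70 genes had means from 0.033 TPM (Hspa12b) to 22.9 TPM (Hspa14, a ribosome-associated form). Hspa1l, best known from testis, was at 2.23, 1.35 and 1.30 TPM, and Hspa12a, a distant relative, at 1.10, 0 and 1.61 TPM, just above and just below the detection limit.

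The mitochondrial chaperonin was expressed at similar levels in the 3 libraries. Hspd1 (HSP60) was at 93.6, 76.8 and 108 TPM and its lid Hspe1 (HSP10) at 139, 129 and 189 TPM. Hspe1 was higher in each library, with a log2 ratio of Hspd1 to Hspe1 of -0.71 ± 0.12 (SD, n = 3). This ratio had the smallest SD of the 15 pairs, and comes from 2 genes that share a start region and the printed repeats. In CPM the ratio was 1.19, since Hspe1 is the shorter transcript and collects fewer reads per molecule.

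**Figure D2:**
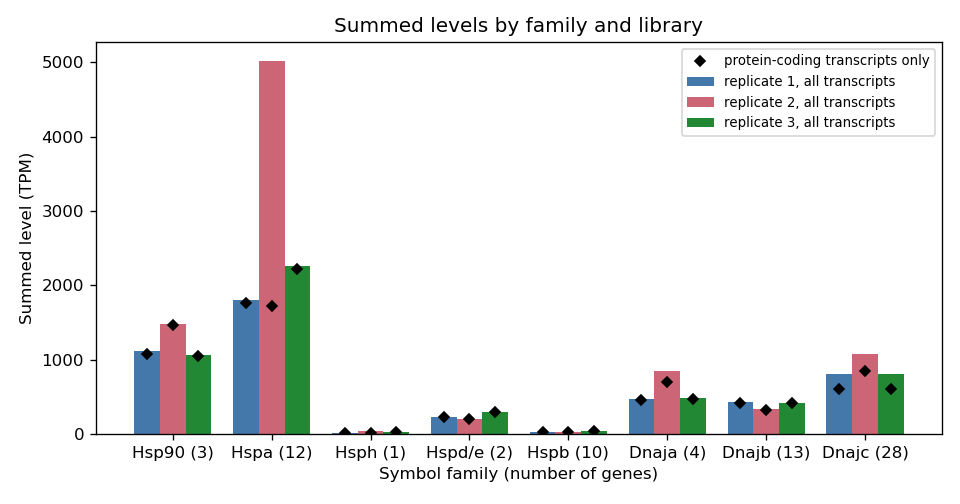
Bars give the summed TPM of each symbol family (x axis, with its number of genes) in each library, and black diamonds the same sum over protein-coding transcripts only. The Hspa bar of replicate 2 reaches 5018 TPM and its diamond 1725, below the 1769 and 2217 of replicates 1 and 3.

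At the gene level, small heat shock proteins were at or near 0 with 1 exception. Of the 10 genes with an Hspb symbol, 4 were detected, and 3 of those (Hspbp1, an HSP70 exchange factor, Hspb11, an intraflagellar transport protein, and Hspbap1) are not small heat shock proteins in spite of their symbols. The fourth, Hspb6 (HSP20), was at 1.45, 4.76 and 1.84 TPM on 27, 215 and 64 counts. The processed transcript Hspb6-202 held 0.32, 4.50 and 0.75 TPM of these values. Over protein-coding transcripts only, Hspb6 was at 1.13, 0.24 and 0.92 TPM, below the detection limit in replicates 2 and 3. Hspb1 (HSP25 in mice), a target of HSF1 in many cells, was at 0, 0 and 0.10 TPM from 2 counts in all, although 2 matches to the repeat lie in its stretch above. Of the 50-base words of its main protein-coding transcript 51.6% also occur in the pseudogene Hsp25-ps1, so reads could have been assigned there. For Hspb1, 3 counts would correspond to 0.267, 0.103 and 0.148 TPM. Hspb2, Hspb3 and Hspb8 had no counts in any library, and the ratio of Hspb1 to Hspb8 was not formed. Cryab, the small heat shock protein alpha B-crystallin, was at 0.92, 0.29 and 0.67 TPM, and Cryaa and Odf1 at 0.

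In all, 8 of 73 members (11.0%) had 0 counts in all libraries, against 34.8% of protein-coding genes. The others were the testis gene Dnajb8, the neuronal clathrin uncoating factor Dnajc6 (auxilin), Dnajc22, and Dnajc5b and Dnajc5g, relatives of the synaptic vesicle protein Dnajc5. A count of 0 allows up to 3 counts per library, which is at most 0.434 TPM for these 8 genes and covers counting error only. Just above 1 TPM by mean were Dnajc27 (1.65, 1.26 and 1.79 TPM), Hspa1l and Hspb6. Just below were Hspa12a, Dnajb13 (0.67, 0.47 and 0.71 TPM) and Dnajc28 (0.63, 0.40 and 0.79 TPM).

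Type A J proteins, which have a zinc-finger region and are cytosolic partners of HSC70 apart from the mitochondrial Dnaja3, were led by Dnaja1. It lay at 335, 594 and 352 TPM (mean 427 ± 145, SD, n = 3), and Dnaja2 lay at 119, 236 and 103 TPM. The log2 ratio of Dnaja1 to Dnaja2 was 1.53 ± 0.23, separated (1.01 in CPM, 1.88 over protein-coding transcripts). Dnaja3, the mitochondrial J protein, was at 19.5, 14.1 and 24.4 TPM, below Dnajc19 of the inner mitochondrial membrane (34.8, 34.2 and 47.3 TPM; log2 ratio -1.02 ± 0.22). Like the chaperonin pair, this ratio turned in CPM (1.35), where length is not taken out.

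Type B J proteins included the best-known inducible one, Dnajb1 (HSP40), at 17.8, 13.9 and 23.2 TPM. Dnaja1 exceeded Dnajb1 by a log2 ratio of 4.51 ± 0.79 (3.63 in CPM, 4.07 without replicate 2). The highest type B genes were Dnajb6, which keeps aggregation-prone proteins soluble (166, 129 and 168 TPM), and Dnajb11 (ERdj3) of the endoplasmic reticulum (148, 99.8 and 156 TPM). Dnajb6 lay above Dnajb2, another J protein with ubiquitin-binding motifs (8.45, 4.64 and 8.24 TPM), by a log2 ratio of 4.46 ± 0.27. Replicate 2 was the lowest library for Dnajb1, Dnajb2, Dnajb4, Dnajb5, Dnajb6 and Dnajb11, and the highest for Dnajb9, Dnajb12 and Dnajb14. It was the lowest for 57.6% of all detected protein-coding genes. The level of Dnajb11 exceeded that of Dnajc3 (p58IPK), a J protein of the same compartment (19.5, 14.9 and 15.1 TPM), by a log2 ratio of 3.00 ± 0.32 (1.45 in CPM). The other type B genes had means from 0 (Dnajb8) to 33.9 TPM (Dnajb9), and 9 of all 13 were detected.

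Type C is the most varied group, in which only the J domain is shared. Of its 28 genes 23 were detected, and 4 of the other 5 had no counts. Dnajc7, a co-chaperone that binds both HSP70 and HSP90, was the steadiest member in TPM, at 143, 144 and 148 (coefficient of variation 1.65%). In CPM it was not steady (108, 196 and 130), and its transcripts shifted: the full-length Dnajc7-201 was at 52.2, 112 and 68.6 TPM and the 770-base processed transcript Dnajc7-203 at 69.3, 22.8 and 60.5 TPM. Dnajc8, linked to the spliceosome, was at 98.4, 326 and 104 TPM. Dnajc2 (zuotin), which works on nascent chains at the ribosome, was at 119, 127 and 73.5 TPM, Dnajc1 of the endoplasmic reticulum at 81.4, 71.3 and 57.2 TPM, and the endosomal Dnajc13 at 44.3, 61.9 and 43.9 TPM. Dnajc5, the cysteine string protein, was at 38.7, 37.9 and 50.3 TPM and exceeded Dnajb1 by a log2 ratio of 1.22 ± 0.19; over protein-coding transcripts alone that ratio was 0.41 ± 0.45.

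**Figure D3:**
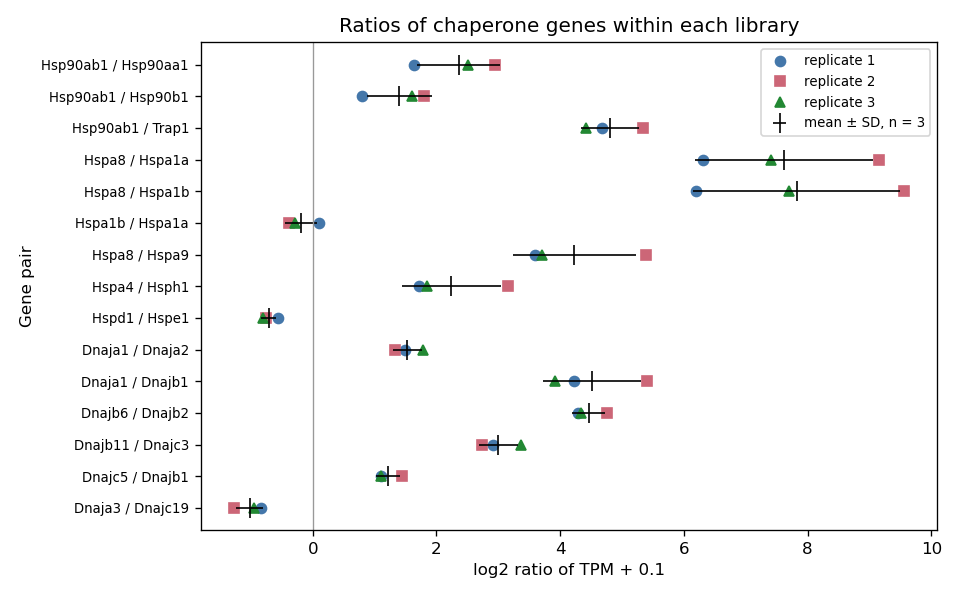
Log2 ratios of TPM + 0.1 (x axis) for the 15 gene pairs (y axis), with 1 point per library, and black marks for the mean ± SD over n = 3 libraries. Of the 15 pairs 12 were separated, and only Hspa1b over Hspa1a changes sign.

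Of the 15 pairs, 12 were separated. Some calls depended on the setting: Hsp90ab1 over Hsp90aa1 was lost and Hspa4 over Hsph1 gained in the second quantification, and Dnajc5 over Dnajb1 was lost over protein-coding transcripts only. Hspa8 lay above the inducible Hspa1a and Hspa1b in each library, and both pairs were separated in each setting run.

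The partners of these chaperones were present almost throughout. Of 13 HSP70 co-chaperones 12 were detected, led by the exchange factor Bag1 (215 ± 51.1 TPM, SD, n = 3), St13, which stabilises HSP70 with its client (164 ± 113), and Bag6 (59.0 ± 18.3). The lowest were Bag4 (2.89 TPM) and Bag2 (0.42 TPM). All 19 HSP90 co-chaperones were detected, led by the kinase adaptor Cdc37 (179 ± 65.3 TPM), the ATPase activator Ahsa1 (171 ± 18.9) and Stip1 (HOP), which links HSP70 to HSP90 (110 ± 37.0). Tsc1 (6.19 TPM) and Fkbp5 (3.10 TPM) were the lowest. All 13 measured subunits of the cytosolic chaperonin TRiC and its helper prefoldin were detected, from Pfdn5 (168 ± 43.9 TPM), Cct2 (143 ± 36.7) and Cct5 (107 ± 13.1) to Vbp1 (32.8) and Pfdn4 (28.2), and Cct6a was not found by that symbol. Median levels of these lists were 21.5, 27.7 and 92.5 TPM. The median was 12.7 TPM over the 73 members, which include more undetected genes, and 21.85 TPM over the 55 detected members.

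Of 7 genes for heat shock factors and their partners, 3 were detected. The HSF-binding protein Hsbp1 was at 152, 255 and 181 TPM, Hsf1 at 12.7, 12.1 and 14.2 TPM and Hsf2 at 8.86, 8.92 and 8.26 TPM. Hsf5 (0.02 TPM) and Hsf3 (0 TPM) were the lowest. Of 10 immediate-early stress genes 9 were detected. Atf3 was at 299, 364 and 297 TPM, Junb at 224, 28.7 and 94.1 TPM and Jun at 73.9, 72.7 and 52.5 TPM, with Egr1 (5.51 TPM) and Fosb (0.03 TPM) lowest.

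No member was called as spreading more between libraries than genes of like abundance. This does not show that the members spread alike, since the test was tried only on simulated data of lower spread. By edgeR's quasi-likelihood fit with Benjamini-Hochberg adjustment, 0 of 57 members tested and 0 of 11932 genes (0%) passed. At an unadjusted p under 0.05 there were 0 members and 503 genes (4.22%), and DESeq2 marked 0 members and 17 genes (0.142%) as dispersion outliers. With no filter on low counts edgeR called 64 genes, and with 1 library left out 20, 7 and 11 genes (without replicate 1, 2 and 3), with 0 members in each case. The coefficient of variation of TPM over the 55 detected members had a median of 25.5%, against 27.4% over 9430 detected protein-coding genes. Within the members it ran from 1.65% for Dnajc7 to 90.1% for Hspa4, followed by Dnajc8 (73.6%), Hspb6 (67.4%), Hspa1b (64.2%) and Hspa8 (61.1%). Libraries ranked unevenly: 21 of 55 detected members (38.2%) were highest in replicate 2, against 28.1% of detected protein-coding genes, and 27 (49.1%) were lowest there, against 57.6%. In replicate 1, 15 members (27.3%) were highest and 15 lowest, against 25.7% and 25.8%, and in replicate 3, 19 (34.5%) were highest and 13 (23.6%) lowest, against 46.2% and 16.6%.

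At least 2-fold above both other libraries in replicate 2 were 4 of 55 members in TPM (7.27%, against 4.25%): Hspa8, Hspa4, Hspb6 and Dnajc8. In CPM 2 of them remained (3.64%, against 2.61%), Hspb6 and Dnajc8. In TPM these excesses lay on particular annotated transcripts. For Hspa8 the non-coding processed transcripts Hspa8-209 (727 bases; chr9:40801279-40804337) and Hspa8-203 (598 bases; chr9:40801302-40803026) were at 0, 2049 and 0 TPM and at 4.82, 993 and 0.71 TPM in replicates 1, 2 and 3. The full-length coding transcript Hspa8-201 (2394 bases) went the other way, at 1097, 618 and 1333 TPM. Another coding transcript, Hspa8-202 (2019 bases), was highest in replicate 2, at 410, 870 and 604 TPM. Summed over all protein-coding transcripts, Hspa8 was at 1506, 1488 and 1937 TPM, and replicate 2 no longer stood apart.

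Other members showed the same layout. For Hspa4, the 630-base Hspa4-202, annotated as a retained intron (chr11:53262880-53267241), was at 15.0, 242 and 21.3 TPM, while the coding Hspa4-201 was at 48.5, 72.8 and 64.0 TPM. For Dnaja2, the 507-base retained-intron transcript Dnaja2-202 was at 3.29, 129 and 0 TPM, and Dnaja2-201 at 116, 107 and 103 TPM. The short transcript of Dnajc8 is itself annotated as protein-coding: Dnajc8-205 (746 bases) was at 0, 199 and 0 TPM and the full-length Dnajc8-202 at 91.4, 81.7 and 98.5 TPM. Likewise the 916-base coding transcript Dnaja1-205 was at 187, 477 and 183 TPM, and the full-length Dnaja1-201 at 136, 98.2 and 155 TPM. The second deposited quantification of the same reads also had these short transcripts high in replicate 2. Hspa8-209 was at 1.03, 1913 and 7.05 TPM and Hspa4-202 at 24.7, 249 and 45.5 TPM. The coding Hspa8-201 differed little between replicates 1 and 2 there (821, 795 and 1531 TPM in replicates 1, 2 and 3).

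**Figure D4:**
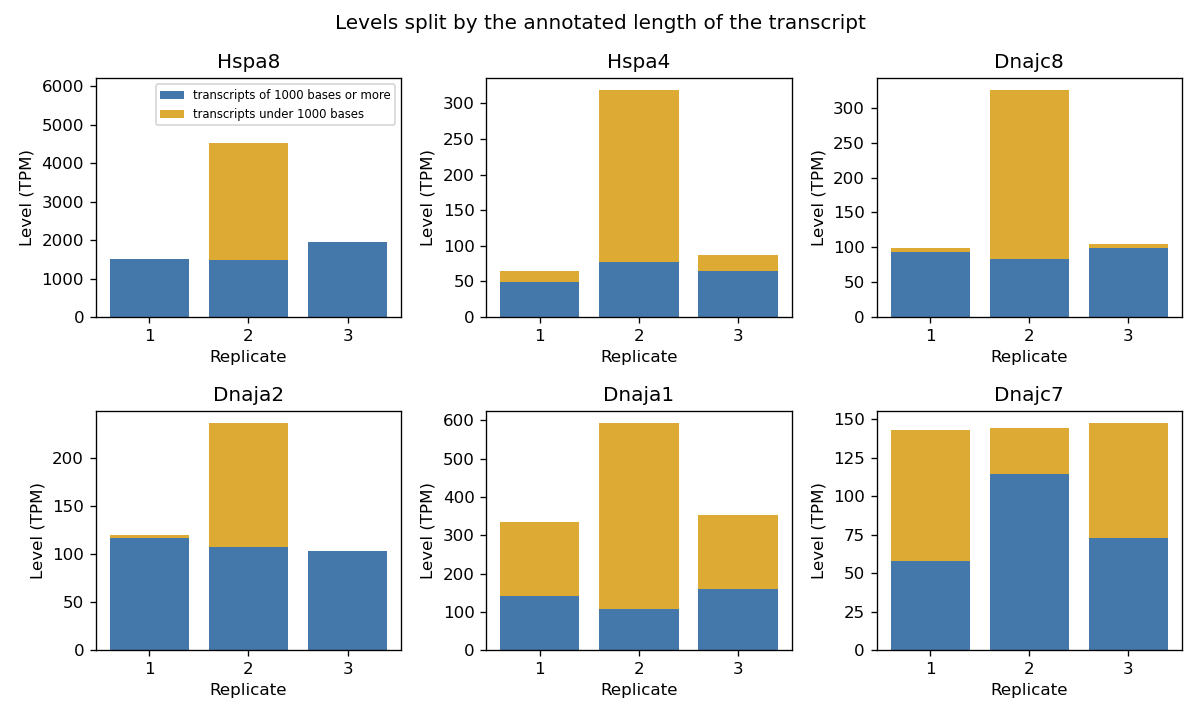
TPM of 6 members in each library (x axis), stacked by transcripts of 1000 bases or more (blue) and shorter ones (yellow). In replicate 2 the yellow part is largest for Hspa8, Hspa4, Dnajc8, Dnaja2 and Dnaja1, where the blue part differs far less between libraries, and Dnajc7 shows the opposite.

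Among 39 members with a mean of 10 TPM or more and a protein-coding transcript of at least 1000 bases, the share of a gene's TPM on transcripts under 1000 bases was at least 20 percentage points higher in replicate 2 than in both other libraries for 8 (20.5%; 5 at a threshold of 30 points). At 20 points the same held for 16.9% of 5825 protein-coding genes, so the members' share lay near that of all genes. The 8 were Hspa8, Hspa4, Dnaja1, Dnaja2, Dnajc8, Dnajc4, Dnajc11 and Dnajc16, the last 3 of which are named after their values were seen. Hspa8 carried 0.425%, 67.1% and 0.120% of its TPM on short transcripts. The second quantification gave 6 of 39 (15.4%, against 13.9%). In replicate 1 or 3 no member met this measure, against 0.343% and 0.326% of genes. Replicate 2 is also the deepest library and the one with the high mitochondrial share, and the part of either in this pattern was not tested.

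**Figure D5:**
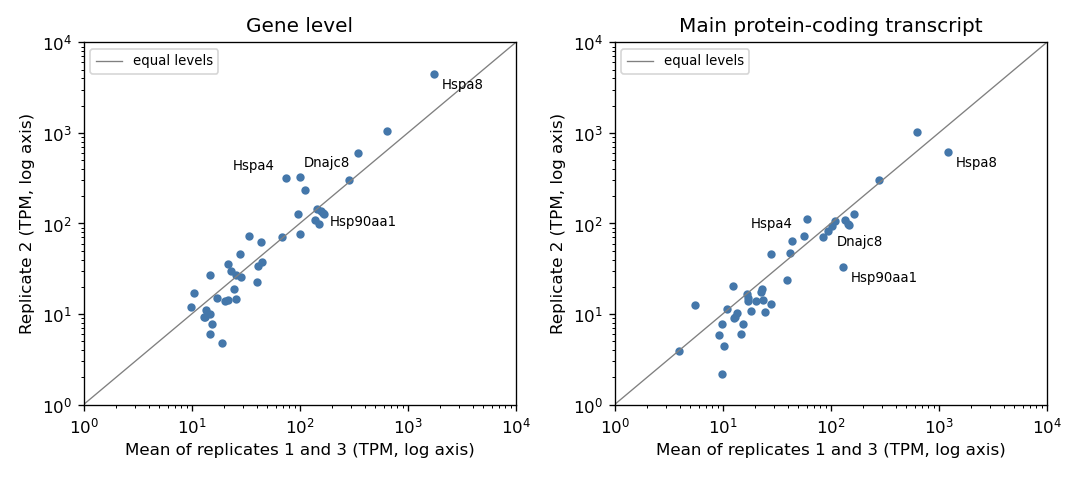
Level in replicate 2 against the mean of replicates 1 and 3, both in TPM on log axes, for the 41 members at a mean of 10 TPM or more, at the gene level (left) and for each gene's most counted protein-coding transcript (right); the line marks equal levels. Hspa8 and Hspa4 lie well above the line on the left, and on the right Hspa8 and Hsp90aa1 lie below it.

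The most abundant transcript was not annotated as protein-coding for 3 of 41 members at a mean of 10 TPM or more (7.32%, against 6.63% of protein-coding genes): Hspa4 (Hspa4-202), Dnajc15 and Dnajc5. Dnajc15, a J protein of the inner mitochondrial membrane, was at 30.9, 72.3 and 36.7 TPM, and the 674-base Dnajc15-201, annotated as subject to nonsense-mediated decay, carried 24.5, 67.5 and 29.2 TPM of it. The annotated coding transcript of that gene, Dnajc15-202, was at 3.71, 3.94 and 4.15 TPM. For Dnajc5 the decay-annotated Dnajc5-204 (15.8, 11.2 and 24.6 TPM) and the coding Dnajc5-201 (16.9, 13.8 and 17.2 TPM) overlapped.

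The 2 quantifications differed by library and, for some members, in the leading transcript. The median log2 difference of the members, second minus first, was -0.45 in replicate 1, 0.05 in replicate 2 and -0.11 in replicate 3, beside -0.42, 0.05 and -0.09 over all 10191 genes tested. In replicate 1 Hsp90ab1 was at 588 TPM in the first and 388 in the second, and Dnajb1 at 17.8 and 11.6. By limma on the within-library difference of log2(TPM + 1), 0 of 56 members were called at an adjusted p under 0.05 and a difference of 1 or more, against 165 of 10191 genes (1.62%). At an unadjusted p under 0.05 there was 1 member, Dnajb13, against 6.03% of genes. Dnajb13 was 0.51 higher in the second quantification (SE 0.18, limma adjusted p = 0.140). Every member tested had this SE, so it is a value pooled over genes and not the spread of Dnajb13 itself. The differences were not centred by library, so the shift between libraries given above enters it. Averaged over libraries, the members' differences ran from -0.31 for Hspa8 to 0.51 for Dnajb13. The dominant transcript differed between the quantifications for 5 of 41 members (12.2%, against 9.74%): Hsp90aa1, Dnajc1, Dnajc2, Dnajc8 and Dnajc14. Without replicate 1 the count was 2.

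Hsp90aa1 shows how far this goes. In the first quantification the 3281-base Hsp90aa1-202 held 148, 33.2 and 111 TPM and the 2852-base Hsp90aa1-201 held 13.1, 97.3 and 4.17 TPM. The second gave Hsp90aa1-202 at 37.9, 15.6 and 42.0 TPM and Hsp90aa1-201 at 74.3, 112 and 63.8 TPM, although the gene totals (191, 136 and 124 against 179, 166 and 142 TPM) lay close together. Dnajc2-204 led Dnajc2-201 in the first quantification in replicate 1 alone (70.6 against 45.3 TPM) and trailed it in replicates 2 and 3. Dnajc14 split between the coding transcripts Dnajc14-202 (22.6, 10.5 and 27.0 TPM) and Dnajc14-207 (12.8, 4.44 and 11.7 TPM), and Dnajc1 between the coding Dnajc1-209 (30.1, 14.4 and 17.1 TPM) and the decay-annotated Dnajc1-201 (8.36, 44.9 and 3.35 TPM).

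Several of the most abundant members have near-identical copies elsewhere in the genome, which bears on how reads could be placed. Words of 50 bases were taken from each member's most counted protein-coding transcript. Other transcripts, such as the short ones described above, were not read for them. The share of these words that also occur in another gene was 73.2% for Hspa8 (mostly Gm15459), 58.5% for Hsp90aa1 (Gm12346) and 44.8% for Hspd1 (Hspd1-ps3). This share was 41.9% for Dnajb6 (Gm6395), 36.1% for Hspe1 and 30.6% for Dnaja1 (Gm15542). It was 4.49% for Hsp90ab1, 4.10% for Hspa9, 3.71% for Hsp90b1 and 0% for Hspa4, Dnaja2 and Dnajc7. The deposited posterior SDs, the model's own uncertainty of a count, were small for this set: 27.5 to 35.3 counts for Hspa8 beside 52514 to 180084 expected counts, and 5.51 to 6.23 for Hsp90aa1 beside 8280 to 14924.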

How the data were processed

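Polyadenylated RNA of 3 libraries was quantified by the authors in 2 ways against mm10 and GENCODE M21, according to the deposited notes, which name no tool. The first has gene and transcript tables in the layout of RSEM, the second transcript tables in the layout of kallisto, summed here to genes. Per the file headers, the deposited tables hold expected counts (first) and estimated counts (second), in which a read is shared among the transcripts it may come from. Per the file headers, both deposited tables hold TPM, counts divided by effective length and scaled per library. Per the file headers, the percent of its gene carried by each transcript was deposited with the first. Other units in them are posterior SDs and effective lengths. Levels are TPM of the first quantification unless stated. The 26345 entries that are no annotated gene took at most 0.0875% of counts and were left out.

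The members and gene lists were chosen with earlier results of these data known. Named are members at a mean of 50 TPM or more, called members, members of 16 pairs, the 3 nearest to 1 TPM on each side, those with a differing dominant transcript and those at 0 counts, and of each list the 3 highest and 2 lowest genes; one pair (Hspb1 and Hspb8) gave no ratio. Spread was tested with edgeR 4.0.16 (quasi-likelihood, TMM, filterByExpr, one-sided F test against the trended prior) on rounded expected counts. The quantifications were compared with limma 3.58.1, for protein-coding genes at a mean of 1 TPM or more in either. DESeq2 1.42.0 was an alternative (R 4.3.3). The edgeR and limma tests used Benjamini-Hochberg adjustment over all genes tested and were tried on simulated data. DESeq2 only marked dispersion outliers and was not tried on simulated data. The simulated counts for edgeR were drawn with less spread than edgeR estimated here (median coefficient of variation 33.7% over 11932 genes). The simulated differences for limma had no shift between libraries. In the data that shift was present (medians of -0.42, 0.05 and -0.09 in replicates 1, 2 and 3), so the trial does not match it. Shares and pairs are descriptions with no test. Sequences came from RefSeq on GRCm38.p6, whose chromosomes are those of mm10. The alternatives were other normalizations, filters, pseudocounts, thresholds, the second quantification, and leaving out each library. Those restricted to protein-coding transcripts, the length offset and those on short transcripts were added after seeing the data.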

Additional observations from a re-analysis of the deposited data

How the results depend on the processing

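Detected members ranged from 45 at 5 TPM to 56 without replicate 2. No member was called for spread or for a difference between quantifications under any alternative run. Among all genes, spread was called for 0 genes as reported, 64 with no filter on low counts, 17 as DESeq2 dispersion outliers, and 7 (without replicate 2) to 20 (without replicate 1) with a library left out. A difference between quantifications was called for 165 genes as reported, 253 with a pseudocount of 0.1, 0 with no filter on low values, 84 centred on the median, 98 in CPM, and 175 to 196 with a library left out. Separated pairs numbered 11 to 14 with a library left out, where each SD rests on n = 2, and 12 or 13 otherwise. They were not always the same pairs. Hsp90ab1 over Hsp90aa1 (1.95) dropped out and Hspa4 over Hsph1 (2.39) came in with the second quantification. Dnajc5 over Dnajb1 (0.41) dropped out over protein-coding transcripts. In CPM, Hspd1 over Hspe1 (1.19) and Dnaja3 over Dnajc19 (1.35) turned from -0.71 and -1.02, since CPM is not scaled by length. Members with another dominant transcript numbered 2 without replicate 1 and 5 without either other library; the cause was not tested. Members with short transcripts high in replicate 2 numbered 5 at 30 percentage points and 6 to 10 under the other settings. For the altered counts of detected members, dominant transcripts and short transcripts, no share of all genes is given at the same setting. The exception is 13.9% for short transcripts in the second quantification. The altered counts therefore cannot be set against all genes. No paired analysis was possible because the 3 libraries form 1 group, so replicate numbers pair no samples across groups; the 2 quantifications were compared within each library by construction. Depth sets the limit for members without counts, where up to 0.434 TPM (Hspb2 in replicate 1) would not have been detectable.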
